A study of Mus musculus with 8 samples.

Results

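The genes described here are 8 of the 31053 genes in the count tables: the tissue inhibitors of metalloproteinases Timp1, Timp2, Timp3 and Timp4, the matrix proteases Mmp2, Mmp14 and Adamts1, and the plasminogen activator Plat. They were chosen by symbol, and all 8 were found in the tables. Single-cell RNA was measured in the brain cortical plate of 8-week-old mice perfused with PBS, in whole-animal Lama4-/- mice, in Tek-Cre:Lama5-/- mice and in a separate wild-type (WT) control group for each. Lama4 and Lama5 encode laminin alpha chains of the vascular basement membrane. Tek-Cre deletes Lama5 in endothelial cells and in part of the blood cell lineage, so other cells of these mice can still make it. The brains of 3 mice were pooled per group and 2 samples per group were deposited. The count tables of both Lama4-/- samples were identical and were counted as 1 library, which leaves 7 libraries. All tissue was digested with papain, DNase and Liberase, and myelin was removed, before droplet capture of the 3′ ends of transcripts. Because the libraries of a group came from 1 pool of mice, the p-values cover only the spread between libraries.

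TIMP proteins are secreted and block the active site of metalloproteinases. Timp3 stays bound to the extracellular matrix and also blocks ADAM and ADAMTS proteases, while Timp2 helps the membrane protease Mmp14 to activate Mmp2, which cleaves basement membrane collagen. Adamts1 is a secreted protease that cleaves matrix proteoglycans such as versican, and Plat, tissue plasminogen activator, is made by brain endothelium and turns plasminogen into plasmin. In the brain these enzymes and inhibitors act on the basement membrane shared by endothelial cells, mural cells and astrocyte endfeet.

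The libraries held 35479306 to 48314458 unique molecular identifiers (UMIs, one per captured transcript). Of 56961 barcodes, 47239 were kept as cells, and any pair of libraries shared 5 to 21 barcodes. Clusters were named by marker genes into 13 classes, each written as "-like" because the names were rebuilt from the counts. Endothelial-like cells numbered 26252, microglia-like 7649, oligodendrocyte-like 4438, smooth muscle-like 2556, astrocyte-like 1919, pericyte-like 1610 and fibroblast-like 206. Neuroblast-like (490), ependymal-like (313) and choroid plexus-like (175) cells were also present although the tissue is labelled cortical plate, and neurons formed no class. Median UMIs per cell were 5264 to 6564 in the libraries of the Lama4 experiment and 2908 to 3801.5 in those of the Lama5 experiment. In endothelial-like cells Lama4 measured 45.9 and 44.5 CPM (UMIs of the gene per 1e6 UMIs of the class) in its WT libraries and 0.06 CPM, 1 UMI, in Lama4-/-. Lama5 there measured 42.5 and 42.1 CPM in its WT libraries and 22.5 and 24.3 CPM in Tek-Cre:Lama5-/-. The deleted part of each gene is not given in the sources used here, so a 3′ tag may lie outside it.

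Timp3 and Adamts1 are the members whose endothelial-like levels passed the test in Tek-Cre:Lama5-/-, and their promoters are shown for that reason. Each window runs from 250 bases before to 50 bases after the RefSeq start (GRCm38.p6), 5′ to 3′ on the gene's strand, with GC boxes (GGGCGG or its reverse complement) and the TATA box (TATAAA) in capitals.
Adamts1, chr16:85803064-85803363, minus strand: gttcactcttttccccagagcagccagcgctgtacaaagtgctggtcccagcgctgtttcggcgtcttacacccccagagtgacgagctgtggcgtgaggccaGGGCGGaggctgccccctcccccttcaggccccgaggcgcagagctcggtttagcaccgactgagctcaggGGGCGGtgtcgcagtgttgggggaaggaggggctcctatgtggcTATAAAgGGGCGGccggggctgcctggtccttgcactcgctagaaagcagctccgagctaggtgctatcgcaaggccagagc
Timp3, chr10:86300162-86300461, plus strand: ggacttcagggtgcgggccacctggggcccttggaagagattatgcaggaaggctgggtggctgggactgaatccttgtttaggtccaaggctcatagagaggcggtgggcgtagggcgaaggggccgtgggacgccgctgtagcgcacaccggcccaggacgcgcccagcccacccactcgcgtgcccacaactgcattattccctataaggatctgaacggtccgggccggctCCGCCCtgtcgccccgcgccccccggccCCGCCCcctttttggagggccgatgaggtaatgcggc
The Adamts1 window has 3 GC boxes, which begin 147, 76 and 25 bases before the start, and a TATA box 32 bases before it that does not overlap them. The Timp3 window has 2 GC boxes, which begin 15 bases before and 13 bases after the start, and no TATA box. GC content was 64.7% for Adamts1 and 67.0% for Timp3, against a median of 53% over 32544 RefSeq windows of the same length. On either strand a GC box occurred in 35.9% of those windows and a TATA box in 13.6%. Neither the AP-1 motif (TGANTCA, in 7.79% of windows) nor the CRE motif (TGACGTCA, in 1.80%) occurred in the windows of the 6 members that could be matched. Timp1, Timp2 and Mmp14 had 1, 1 and 2 GC boxes, Timp4 had none, and Mmp2 and Plat are named only.

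In GRCm38 coordinates, Timp1 (ENSMUSG00000001131) is on chromosome X at 20870166 to 20874735, plus strand. Timp2 (ENSMUSG00000017466) is on chromosome 11 at 118301069 to 118355740, minus strand. Timp3 (ENSMUSG00000020044) is on chromosome 10 at 86300372 to 86349506, plus strand, and Timp4 (ENSMUSG00000030317) on chromosome 6 at 115241892 to 115252205, minus strand. These inhibitor genes sit by synapsin genes: Timp1, Timp3 and Timp4 lie within Syn1, Syn3 and Syn2, each on the opposite strand. Mmp2 (ENSMUSG00000031740) is on chromosome 8 at 92827291 to 92853420 and Plat (ENSMUSG00000031538) on the same chromosome at 22757727 to 22782844, both plus strand. Mmp14 (ENSMUSG00000000957) is on chromosome 14 at 54431612 to 54445364, plus strand, and Adamts1 (ENSMUSG00000022893) on chromosome 16 at 85793827 to 85803113, minus strand. Whether counting used strand is not given in the sources used here. Over all libraries Syn3 measured 39.4 CPM in endothelial-like cells, Syn2 38.0 CPM in astrocyte-like cells and Syn1 2.18 CPM in fibroblast-like cells. Each was far under the inhibitor gene of the same place in these classes, where that inhibitor was highest. In other classes the order could be the opposite. Neuroblast-like cells had 175 CPM of Syn2 against 14.5 CPM of Timp4, and 56.7 CPM of Syn1 against 0.64 CPM of Timp1.

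Timp3, Plat and Adamts1 were highest in vascular cells by median: Timp3 and Plat in endothelial-like and Adamts1 in smooth muscle-like cells. Timp2 was highest in microglia-like cells, Timp4 in astrocyte-like cells, and Timp1, Mmp2 and Mmp14 in fibroblast-like cells. Levels across classes are unscaled CPM of 3′ tags, with no length correction, and are a description with no test. Values are given as the lowest, median and highest library. Timp3, the matrix-bound inhibitor, measured 1019, 1248 and 1438 CPM in endothelial-like cells, 450.1, 1151 and 1969 CPM in fibroblast-like cells and 783, 1141 and 1161 CPM in smooth muscle-like cells. Pericyte-like cells followed at 503, 634 and 1047 CPM. The ranges of these top classes over all libraries overlapped. Within each library, smooth muscle-like Timp3 was 67.7% to 93.1% and pericyte-like Timp3 35.9% to 86.5% of the endothelial-like level. By range, the order first separated between pericyte-like and ependymal-like cells, whose highest library was at 387 CPM. That separation does not hold for most pericyte-like cells: without a cluster of 144 cells led by Col3a1, which had 3075 CPM of Timp3, the libraries ranged from 176 to 436 CPM. Astrocyte-like cells measured 230.1, 279 and 393 CPM of Timp3, oligodendrocyte-like cells 26.4, 34.8 and 59.4 CPM and microglia-like cells 4.93, 11.1 and 12.9 CPM. In microglia-like cells the Timp3 level was 0.36% to 1.02% of the endothelial-like level of the same library, and the summed endothelial markers were 0.48% to 1.01% of theirs. Of all Timp3 UMIs, 82.6% were in endothelial-like cells.

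Timp2, which both blocks metalloproteinases and takes part in Mmp2 activation, had a different distribution. It measured 406, 422 and 572 CPM in microglia-like cells, 363, 407 and 416 CPM in perivascular macrophage-like cells and 269, 384 and 594 CPM in fibroblast-like cells. Ependymal-like cells (314, 351 and 379 CPM) overlapped the perivascular macrophage-like and fibroblast-like values but lay below all microglia-like libraries. Oligodendrocyte-like cells (182, 187 and 217 CPM) lay below ependymal-like cells in every library. Endothelial-like cells were the lowest of the vascular classes for Timp2 by median, at 23.7, 27.2 and 31.2 CPM.

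Timp4, an inhibitor with a narrow tissue range, was highest in astrocyte-like cells, at 274, 303 and 375 CPM. Ependymal-like cells (52.5, 88.8 and 124 CPM) lay below astrocyte-like cells without overlap, and neuroblast-like cells (7.57, 9.98 and 30.8 CPM) below these. In neuroblast-like cells Syn2, on the other strand, exceeded Timp4, as given above. Astrocyte-like cells held 74.9% of all Timp4 UMIs.

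Timp1, an inducible inhibitor, was highest in fibroblast-like cells, at 71.9, 99.0 and 209.8 CPM. Only 528 UMIs of Timp1 were counted in all, 61.7% of them in fibroblast-like and 32.8% in endothelial-like cells, where the level was 0.66 to 2.05 CPM. In microglia-like cells 0 of 38087127 UMIs were Timp1, which allows a level of up to 0.079 CPM, taking 3 counts as the limit of a count of 0 and counting error alone.

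**Figure D1:**
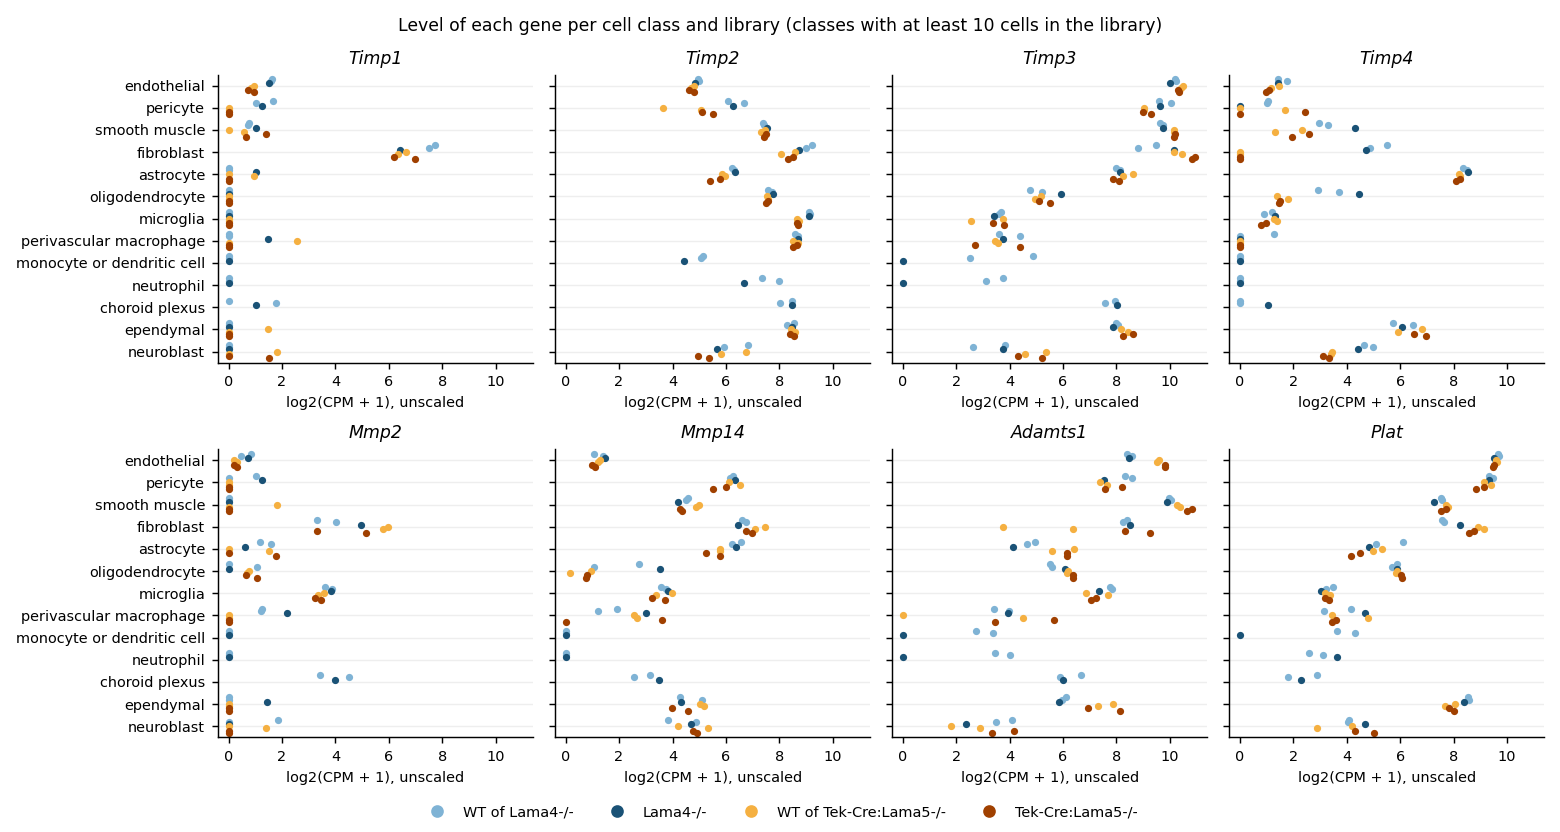
Level of each of the 8 genes, as log2(CPM + 1) without scaling on the horizontal axis, per cell class on the vertical axis; each point is a library, coloured by group. Timp3, Adamts1 and Plat are high in the vascular classes, Timp2 in microglia-like and macrophage-like cells, Timp4 in astrocyte-like cells and Timp1 in fibroblast-like cells.

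Among the proteases, Adamts1 was highest in smooth muscle-like cells, at 950.2, 1229 and 1830.2 CPM, which lay above endothelial-like cells at 331, 734 and 904 CPM in every library. Pericyte-like cells measured 165, 199.9 and 383 CPM of Adamts1 and microglia-like cells 115, 163 and 229 CPM. Unlike Timp3 and Plat, Adamts1 in microglia-like cells stood at 14.8% to 64.7% of the endothelial-like level of the same library, well above the 0.48% to 1.01% of the endothelial marker sum. Of its UMIs, 69.2% were in endothelial-like, 15.9% in smooth muscle-like and 6.07% in microglia-like cells.

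Mmp14, the membrane-anchored metalloproteinase, measured 87.1, 108 and 173 CPM in fibroblast-like cells, 44.9, 71.0 and 90.0 CPM in pericyte-like cells and 37.5, 54.3 and 92.8 CPM in astrocyte-like cells. These classes overlapped. Endothelial-like cells had a median of 1.29 CPM of Mmp14. Mmp2, gelatinase A, was sparse, with 655 UMIs in all, of which 69.0% were in microglia-like cells at 8.500, 11.02 and 13.7 CPM. By level Mmp2 was highest in fibroblast-like cells, at 8.80, 30.4 and 61.9 CPM, a range that overlapped the microglia-like values.

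Plat was highest in endothelial-like cells, at 711, 767 and 840.3 CPM in the lowest, median and highest library. Pericyte-like cells (461, 633 and 704 CPM) lay below them without overlap. Without the Col3a1-led cluster, pericyte-like libraries measured 786, 893 and 747 CPM in the Lama4 experiment and 493 to 683 CPM in the Lama5 experiment. The values of the Lama4 experiment then overlapped the endothelial-like range, and those of the Lama5 experiment stayed below it. Smooth muscle-like cells measured 152, 188 and 219 CPM, oligodendrocyte-like cells 51.1, 58.2 and 66.9 CPM and microglia-like cells 7.22, 8.29 and 10.3 CPM. Endothelial-like cells held 89.6% of all Plat UMIs.

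The genes whose log2 levels over the 13 classes were most like each member's are given as a description, by Pearson's r over classes that share libraries. For Timp3 they were Serpinh1 (0.97), Ginm1 (0.96) and Yap1 (0.96). For Plat they were Ehd2 (0.92), Slc9a3r2 (0.92) and Vangl1 (0.91), and for Adamts1 Cavin1 (0.91), Gne (0.90) and Tns1 (0.89). Mmp14 was followed most closely by P3h3 (0.97), Timp4 by Gm266 (0.96), Timp1 by Rbp7 (0.98), Mmp2 by 2810433D01Rik (0.83) and Timp2 by Cd63 (0.71).

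Within endothelial-like cells Timp3 and Adamts1 varied with vessel zone more than Plat did. The cells formed 8 clusters, described by arterial, capillary and venous marker lists. In the arterial-like cluster 7, with 10 of 11 arterial markers, Timp3 measured 2969 CPM and Adamts1 1511 CPM over all libraries. In the venous-like cluster 1, with 10 of 11 venous markers, Timp3 was at 744 CPM and Adamts1 at 528 CPM. Both clusters come almost wholly from the Lama5 experiment. In the Lama4 experiment the arterial-like cluster 10 had 2560.1 CPM of Timp3 and 743 CPM of Adamts1, and the venous-like cluster 9 had 519 and 160.4 CPM. So both genes were higher in the arterial-like than in the venous-like cluster in each experiment. Adamts1 also differed between the clusters of no zone, which came mostly from the Lama5 experiment. Cluster 0 had 835 CPM, and cluster 5, with the lowest median UMIs per cell (1942), had 255 CPM, below venous-like cluster 1. Plat stayed between 510.3 and 868 CPM over the 8 clusters and was higher in the venous-like than in the arterial-like cluster in each experiment, with 868 against 637 CPM and 765 against 676 CPM. Timp2 measured 99.3 and 106 CPM in arterial-like clusters 7 and 10, and 9.0 CPM in each venous-like cluster. The clusters were found from the same cells, so these levels carry no test.

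**Figure D2:**
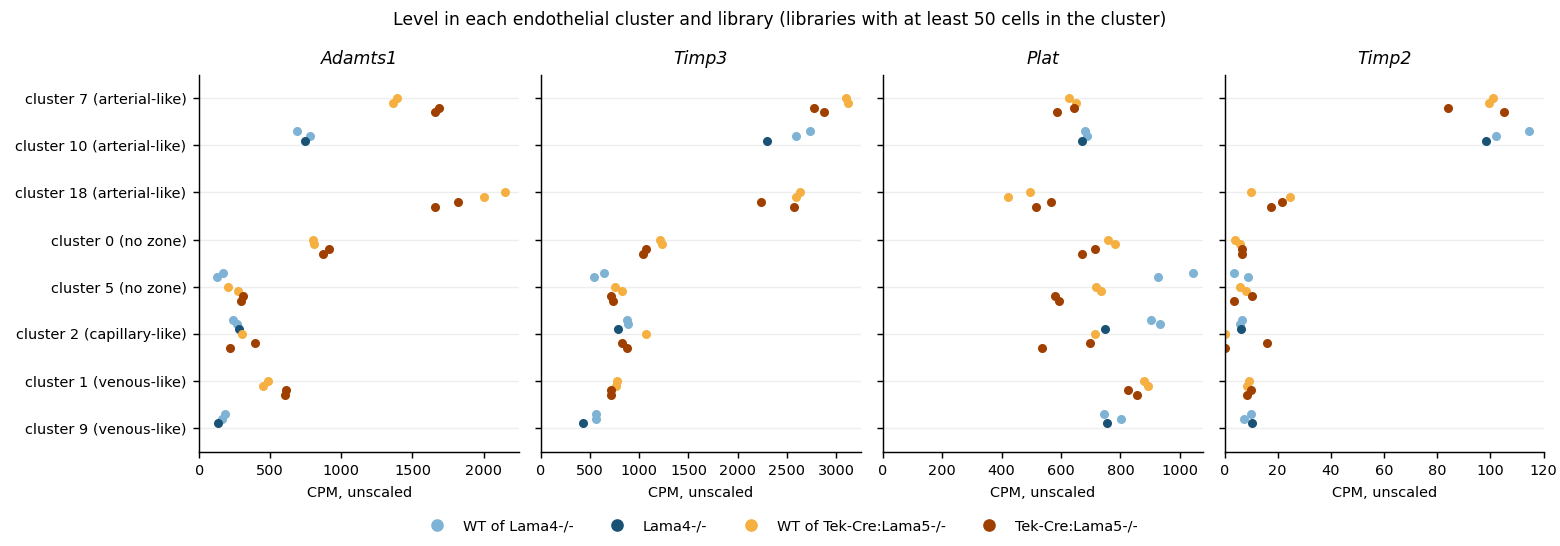
Unscaled CPM of Timp3, Adamts1, Plat and Timp2 (horizontal axis) in each endothelial-like cluster (vertical axis); points are libraries with at least 50 cells in the cluster. Timp3 and Timp2 are highest in arterial-like clusters 7 and 10, except that Timp2 is low in cluster 18, and Plat spans a narrower range.

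In Tek-Cre:Lama5-/- against its own WT, Adamts1 rose in endothelial-like, smooth muscle-like and oligodendrocyte-like cells, Plat rose in oligodendrocyte-like cells, and Timp3 fell slightly in endothelial-like cells. The Timp3 call and both oligodendrocyte-like calls were lost under DESeq2 and other settings given below. Of the 8 classes with enough cells, Timp1 and Mmp2 passed the count filter in 1 each, and Timp1, Timp2, Timp4, Mmp2 and Mmp14 were called in no class where they were tested. The question was whether loss of endothelial laminin alpha 5 goes with other levels of these genes. UMIs were summed per class and library, scaled by TMM, and tested with edgeR's quasi-likelihood test with Benjamini-Hochberg adjustment over all genes of the class that passed the count filter. Levels from here on are TMM-scaled CPM. With 2 libraries per group, the groups of a gene often lie apart where there is no difference. Groups that do not overlap are therefore only described, and the share over all genes is not given. In bulk sums of a class, fewer expressing cells and less RNA per cell cannot be told apart.

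In endothelial-like cells 18.4% of the 13168 genes tested were called (1353 higher and 1076 lower), and of the 7 members that passed the filter 2 were called. With unscaled totals the calls were 740 higher and 2744 lower, and the median over genes moved by -0.08 on the log2 scale. Adamts1 measured 754 and 714 CPM in the WT libraries and 925 and 918 CPM in the knockout libraries. Both knockout libraries lay above both WT libraries, and the groups were further apart than the libraries within them. The difference was 0.33 (SE 0.022) on the log2 scale, or 1.26-fold, with an adjusted p of 5.75e-11. It stayed called when each of the 4 libraries was left out in turn. The summed smooth muscle markers in these cells, from the class where Adamts1 was highest, were 73.3 and 71.0 CPM in WT and 67.3 and 63.9 CPM in knockout libraries.

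Timp3 measured 1400.2 and 1343 CPM in WT and 1277 and 1341 CPM in knockout endothelial-like cells. The higher knockout library lay just under the lower WT library. The difference was -0.07 (SE 0.022), with an adjusted p of 0.0322. The call ended without WT library 1 (-0.04, adjusted p = 0.268), without knockout library 1 (-0.03, adjusted p = 0.415), with stricter cell filters (adjusted p = 0.276) and under DESeq2 (adjusted p = 0.538). With unscaled totals the difference was -0.15.

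Plat measured 747 and 770.0 CPM in WT and 748 and 734 CPM in knockout endothelial-like cells. The groups overlapped, and the difference of -0.03 (SE 0.020) had an adjusted p of 0.27. With unscaled totals it was -0.11, with an adjusted p of 4.71e-04. Timp2 measured 26.2 and 24.4 against 24.2 and 28.1 CPM there, which also overlapped.

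Adamts1 was higher in both knockout libraries in 4 of the 5 endothelial-like clusters with enough cells in the Lama5 experiment, in unscaled CPM. In the arterial-like cluster 7 it measured 1390 and 1360.4 CPM in WT and 1686 and 1658 CPM in knockout libraries. In the venous-like cluster 1 it measured 484 and 452 against 613 and 601 CPM. In cluster 18 the order was the opposite, with 2148 and 2002 CPM in WT and 1817 and 1659 CPM in knockout libraries. That cluster held 77 and 66 WT cells and 103 and 152 knockout cells. Timp3 was lower in both knockout libraries in all 5 clusters, with pooled log2 ratios of -0.21 to -0.10, which include the unscaled shift of -0.08. These values within clusters have no test.

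In smooth muscle-like cells 6.13% of 9524 genes were called, and 1 of the 5 members that passed the filter. Adamts1 measured 1186 and 1277 CPM in WT and 1894 and 1659.8 CPM in knockout libraries. Both knockout libraries were above both WT libraries by more than the spread within groups. The difference was 0.53 (SE 0.049), or 1.44-fold, with an adjusted p of 3.49e-10. The call was lost when no filter on low counts was used (adjusted p = 0.0973). In the same cells the summed pericyte markers were 11788 and 12151 CPM in WT and 10255 and 10609 CPM in knockout libraries, with 8 of 9 markers lower in both. The summed endothelial markers were 60.8 and 64.6 against 73.7 and 104 CPM. Neither marker list was at 0, and their part in the result was not tested. The make-up of the class also differed. At resolution 2, a smooth muscle-like cluster without Rgs5 among its leading genes held 63 of 388 and 74 of 415 WT cells. In the knockout libraries it held 112 of 412 and 106 of 443 cells, and its part was not tested either.

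Timp3 in smooth muscle-like cells measured 1102 and 1108 CPM in WT and 1201 and 1192 CPM in knockout libraries. These groups did not overlap, but the difference of 0.11 (SE 0.044) had an adjusted p of 0.127. Mmp14 there measured 29.6 and 27.4 against 18.9 and 20.2 CPM, again without overlap, with an adjusted p of 0.141. Unscaled totals moved the median of all genes in this class by -0.10.

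**Figure D3:**
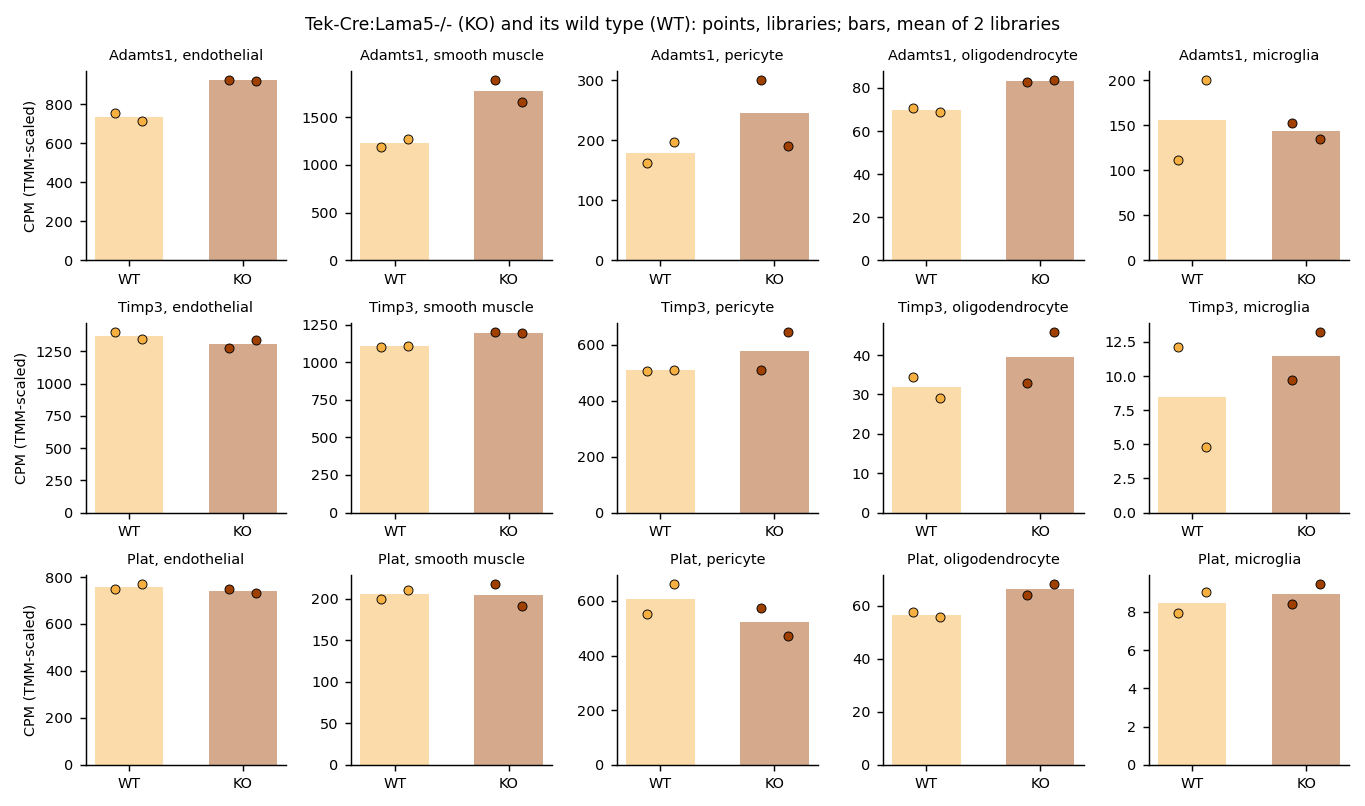
TMM-scaled CPM of Adamts1, Timp3 and Plat (rows) in 5 cell classes (columns), on axes that start at 0; points are libraries and bars are means of 2 libraries of WT or Tek-Cre:Lama5-/- (KO). For Adamts1 the KO points lie above the WT points in endothelial, smooth muscle and oligodendrocyte classes and overlap them in microglia and pericytes.

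In pericyte-like cells 0.38% of 6310 genes were called, and none of the 5 members that passed the filter. Adamts1 measured 162 and 197 CPM in WT and 301 and 191 CPM in knockout libraries. One knockout library stood apart from the other and the groups overlapped, with a difference of 0.45 (SE 0.19) and an adjusted p of 0.409. Without knockout library 2 the difference was 0.74 and was called. Timp3 (506 and 510.4 against 511 and 646 CPM) and Plat (554 and 662 against 573 and 470.3 CPM) had adjusted p-values of 0.633 and 0.555. Timp2 measured 11.3 and 32.4 against 33.9 and 45.8 CPM, and Mmp14 67.5 and 88.7 against 63.4 and 45.8 CPM. Both had an adjusted p of 0.586. Without the Col3a1-led cluster (7 and 7 cells in WT, 8 and 14 in knockout libraries), in unscaled CPM, Timp3 measured 287 and 288 against 352 and 436 CPM, a log2 ratio of 0.45, and the Adamts1 ratio was 0.25.

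In oligodendrocyte-like cells 15.5% of 11314 genes were called, and 2 of the 5 members that passed. Adamts1 measured 70.5 and 68.9 CPM in WT and 83.0 and 83.8 CPM in knockout libraries, a difference of 0.26 (SE 0.060, adjusted p = 0.00676). Plat measured 57.6 and 55.7 against 64.1 and 68.2 CPM, a difference of 0.22 (SE 0.070, adjusted p = 0.038). Neither gene's groups overlapped. Under DESeq2 both calls were lost (adjusted p = 0.398 for Adamts1 and 0.681 for Plat), and Adamts1 was also lost with stricter cell filters (adjusted p = 0.0505). Plat was also lost when any 1 of the 4 libraries was left out, with unscaled totals (0.066), with doublets kept (0.0945), without a low-count filter (0.0949), at clustering resolution 2 (0.0548) and with a replicate block (0.0527). In the same cells the summed endothelial markers were 95.03 and 94.8 CPM in WT and 179 and 165 CPM in knockout libraries, with 6 of 8 markers higher in both and none at 0. The summed microglia markers were 94.8 and 115 against 231 and 195 CPM, with 7 of 8 higher. The part of these markers in the Adamts1 and Plat values was not tested. As a share of the endothelial-like level in the same library, Adamts1 was 9.19% and 9.51% in WT and 9.16% and 9.23% in knockout libraries, while the endothelial markers were 0.48% and 0.48% against 0.95% and 0.89%. Timp3 in oligodendrocyte-like cells measured 34.5 and 29.2 CPM in WT and 33.0 and 45.9 CPM in knockout libraries. The groups overlapped, and the difference of 0.30 (SE 0.12, adjusted p = 0.111) ranged from 0.04 to 0.51 when 1 library was left out. The make-up of this class also differed. Cluster 22, with a median of 1380 UMIs per cell, held 42 of 1225 and 43 of 1103 WT cells. In the knockout libraries it held 78 of 875 and 94 of 978 cells. In cluster 3, the rest of the class, pooled unscaled log2 ratios were 0.13 for Adamts1 (0.005 to 0.264) and 0.14 for Plat (-0.002 to 0.285). For Timp3 the ratio there was 0.13 (-0.07 to 0.33). The part of cluster 22 was not tested.

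In microglia-like cells 14.7% of 9610 genes were called and none of the 6 members that passed. Adamts1 measured 112 and 201 CPM in WT and 153 and 135 CPM in knockout libraries. The WT libraries differed more from each other than from the knockout libraries, which lay between them, and the difference was -0.09 (SE 0.11, adjusted p = 0.67). Without WT library 1 it was -0.47 (adjusted p = 0.0013) and without WT library 2 it was 0.38 (adjusted p = 0.00718). Timp2 in this class measured 396 and 410.0 against 419 and 425 CPM. These groups did not overlap, with a difference of 0.07 (SE 0.053) and an adjusted p of 0.477.

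In astrocyte-like cells 1.92% of 8208 genes were called and none of the 6 members that passed. Timp4 measured 291 and 296 CPM in WT and 303 and 277 CPM in knockout libraries, which overlapped, with a difference of -0.02 (SE 0.14). Timp3 measured 393 and 297 against 233 and 275 CPM without overlap, a difference of -0.43 (SE 0.15) with an adjusted p of 0.115. With stricter cell filters, which also moved the calls in this class from 158 to 1444 genes, the differences of Timp3 (-0.81) and Timp4 (-0.55, adjusted p = 0.0189) were both called. Plat measured 38.6 and 30.0 against 21.7 and 17.2 CPM, with an adjusted p of 0.328. In perivascular macrophage-like cells 1.59% of genes were called, and only Timp2 passed the filter, at 357 and 405 against 422 and 368 CPM. In neuroblast-like cells 0.349% of genes were called, and none of the 4 members that passed.

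**Figure D4:**
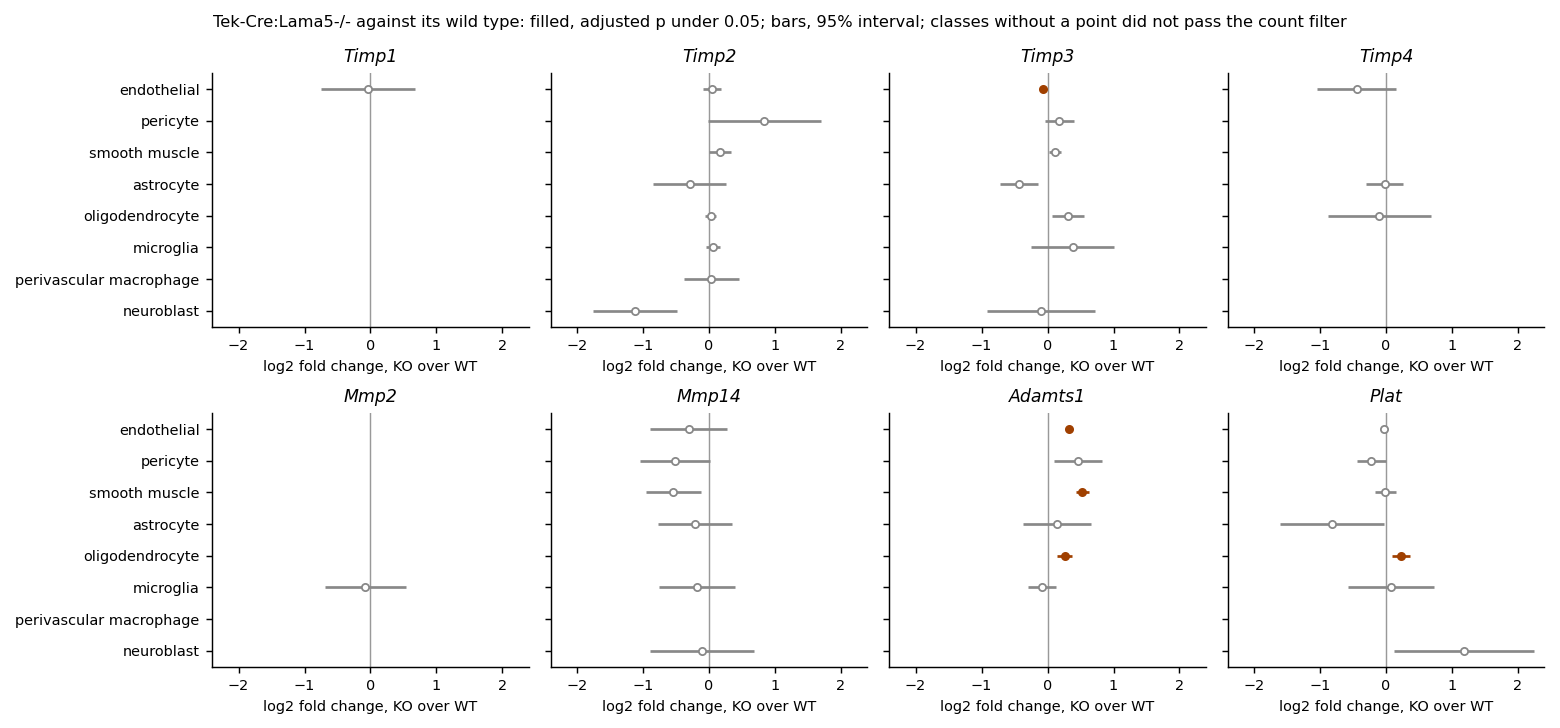
Log2 fold change of Tek-Cre:Lama5-/- over WT (horizontal axis) for each gene and cell class (vertical axis), with bars of 95% intervals; filled points have an adjusted p under 0.05. The filled points are Adamts1 in 3 classes at 0.26 to 0.53, Plat in oligodendrocytes at 0.22 and Timp3 in endothelial cells at -0.07.

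Differences between classes were tested as an interaction of class and genotype in edgeR with library as a block, a comparison chosen after the class values were seen. Against endothelial-like cells, this called 7.39% of genes in microglia-like, 9.99% in oligodendrocyte-like, 1.36% in smooth muscle-like, 0.963% in astrocyte-like and 0.149% in pericyte-like cells. The Adamts1 difference was lower in microglia-like than in endothelial-like cells by -0.40 (SE 0.13, adjusted p = 0.0448), a value that rests on the 2 WT microglia libraries that stood apart. For smooth muscle-like cells it was 0.20 greater than in endothelial-like cells and did not pass (adjusted p = 0.0735). In oligodendrocyte-like cells the Timp3 difference, whose own groups overlapped, was 0.34 greater (adjusted p = 0.0319) and the Plat difference 0.23 greater (adjusted p = 0.0467) than in endothelial-like cells.

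Adamts4 and Adamts9 also rose in smooth muscle-like cells. The lists hold 104 genes, of which 59 passed the filter in endothelial-like cells (12 rose and 8 fell) and 50 in smooth muscle-like cells (4 rose and 2 fell), where 18.4% and 6.13% of all genes tested were called. Of 11 ADAMTS genes tested in smooth muscle-like cells 3 rose and none fell, with a list median of 0.08 against -0.0044 over all genes. Adamts4, a proteoglycan-cleaving relative, measured 81.1 and 113 CPM in WT and 200.2 and 179 CPM in knockout libraries, a difference of 0.97 (SE 0.11, adjusted p = 2.70e-08). Adamts9 measured 52.9 and 57.1 against 123 and 140 CPM, a difference of 1.25 (SE 0.11, adjusted p = 1.82e-10). Both knockout libraries were above both WT libraries for each gene. In endothelial-like cells Adamts1, Adamts4 and Adamts9 were the 3 genes called of 10 ADAMTS genes, all higher, with Adamts9 at 27.4 and 25.5 against 34.1 and 31.5 CPM (0.31, adjusted p = 9.12e-04).

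In the plasminogen system, to which Plat belongs, 2 of 9 genes rose and 2 fell in endothelial-like cells, where 18.4% of all genes were called, with a list median of -0.02. Plaur, the urokinase receptor, measured 58.7 and 56.1 CPM in WT and 98.8 and 96.9 CPM in knockout endothelial-like cells (0.77, SE 0.040, adjusted p = 7.48e-13). It also rose in microglia-like cells, from 112 and 118 to 206 and 190 CPM (0.79, adjusted p = 5.25e-12). S100a10, a plasminogen-binding surface protein, rose by 0.27, and the protease inhibitor Serpine2 fell by 0.18 in endothelial-like cells. Plau, the urokinase activator, rose in microglia-like cells from 48.5 and 42.5 to 69.0 and 74.5 CPM (0.65).

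Among 13 protease inhibitors tested in endothelial-like cells 3 rose and 1, Timp3, fell, beside 18.4% of all genes called, and the Timp3 call was lost under the settings given above. Reck, a membrane-anchored metalloproteinase inhibitor, measured 108 and 107 CPM in WT and 125 and 125 CPM in knockout libraries (0.22, adjusted p = 2.12e-05). Among 12 cathepsins and other matrix proteases 3 rose and 3 fell, with Htra1 falling by 0.33 and Ctsc rising by 0.20. The only matrix metalloproteinase called of 6 was Mmp25, which rose, and the only ADAM protease called of 5 was Adam15, which fell from 184 and 178 to 155 and 154 CPM.

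Of 15 genes of a list of dissociation and immediate early genes, 4 rose and 7 fell in endothelial-like cells, with list sums of 24635 and 24675 CPM in WT and 24303 and 24150 CPM in knockout libraries. In smooth muscle-like cells 5 rose and 5 fell, in oligodendrocyte-like cells 11 rose and 1 fell, and in microglia-like cells 2 rose and 10 fell. Over all genes tested, 18.4% were called in endothelial-like, 6.13% in smooth muscle-like, 15.5% in oligodendrocyte-like and 14.7% in microglia-like cells. In smooth muscle-like cells the heat shock gene Hspa1b fell by 0.98 and Ier3 rose by 0.54. The part of these genes in the Adamts1 values was not tested.

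In the single Lama4-/- library, Timp3 and Plat were lower than in both WT libraries in endothelial-like cells, and Adamts1 was lower in pericyte-like and microglia-like cells. With 1 library there is no test and no replicate check. A gene counted as outside where the exact 95% Poisson interval of the Lama4-/- library met neither WT interval, among genes at 20 CPM or more on average. These intervals cover counting error only. In endothelial-like cells 14.9% of 6406 genes were outside, and 2 of the 4 members at that level.

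Timp3 in endothelial-like cells measured 1173 and 1219 CPM in the WT libraries and 996 CPM (interval 981 to 1012) in Lama4-/-, a log2 ratio of -0.26. Plat measured 828 and 846 CPM against 720.4 CPM (708 to 733), a log2 ratio of -0.22. The Lama4-/- library was below both WT libraries for each gene. Adamts1 measured 336 and 382 against 342 CPM and lay between them. Within clusters, in unscaled CPM, Timp3 was below both WT libraries in cluster 2, called capillary-like by 3 of 10 markers (880 and 887 against 786 CPM), venous-like cluster 9 (557 and 557 against 429 CPM) and arterial-like cluster 10 (2733 and 2593 against 2296 CPM). Plat was below both in cluster 2, at 904 and 933 against 750 CPM. Adamts1 in cluster 2 was above both, at 240 and 267 against 280 CPM, while over the whole class it lay between them. In clusters 9 and 10 the pooled Plat ratios were both -0.03, with counting intervals that included 0.

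Pericyte-like cells had 1.58% of genes outside, and 1 of 5 members. Adamts1 there measured 317 and 383 CPM in WT and 185 CPM (155 to 218) in Lama4-/-, a log2 ratio of -0.92. A cluster led by Col3a1 within this class had 916 CPM of Adamts1 and 3075 CPM of Timp3. It held 47 and 37 cells in the WT libraries and 24 in Lama4-/-. Without it, in unscaled CPM, Adamts1 measured 111 and 112 against 66.0 CPM (46.7 to 90.6), an interval that met both WT intervals, with a log2 ratio of -0.75. Timp3 in this class was 775 and 1046 against 797 CPM with that cluster (-0.19), and 176 and 215 against 241 CPM without it (0.30), so its direction turned.

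In microglia-like cells 12.1% of genes were outside, and 1 of 2 members. Adamts1 measured 217 and 230.4 CPM in WT and 160.1 CPM (151 to 169) in Lama4-/-, a log2 ratio of -0.48. Timp2 measured 558 and 574 against 539 CPM, with intervals that met. No member was outside in smooth muscle-like (5.3% of genes), astrocyte-like (2.41%), oligodendrocyte-like (3.04%) or perivascular macrophage-like cells (2.58%). Smooth muscle-like Adamts1 was 996 and 1040.2 against 945 CPM, and astrocyte-like Timp4 was 333 and 356 against 372 CPM. Timp4 in smooth muscle-like cells lay under the level minimum, at 6.77 and 8.86 CPM in WT and 18.7 CPM in Lama4-/- from 19, 27 and 37 UMIs, and its intervals did not meet.

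**Figure D5:**
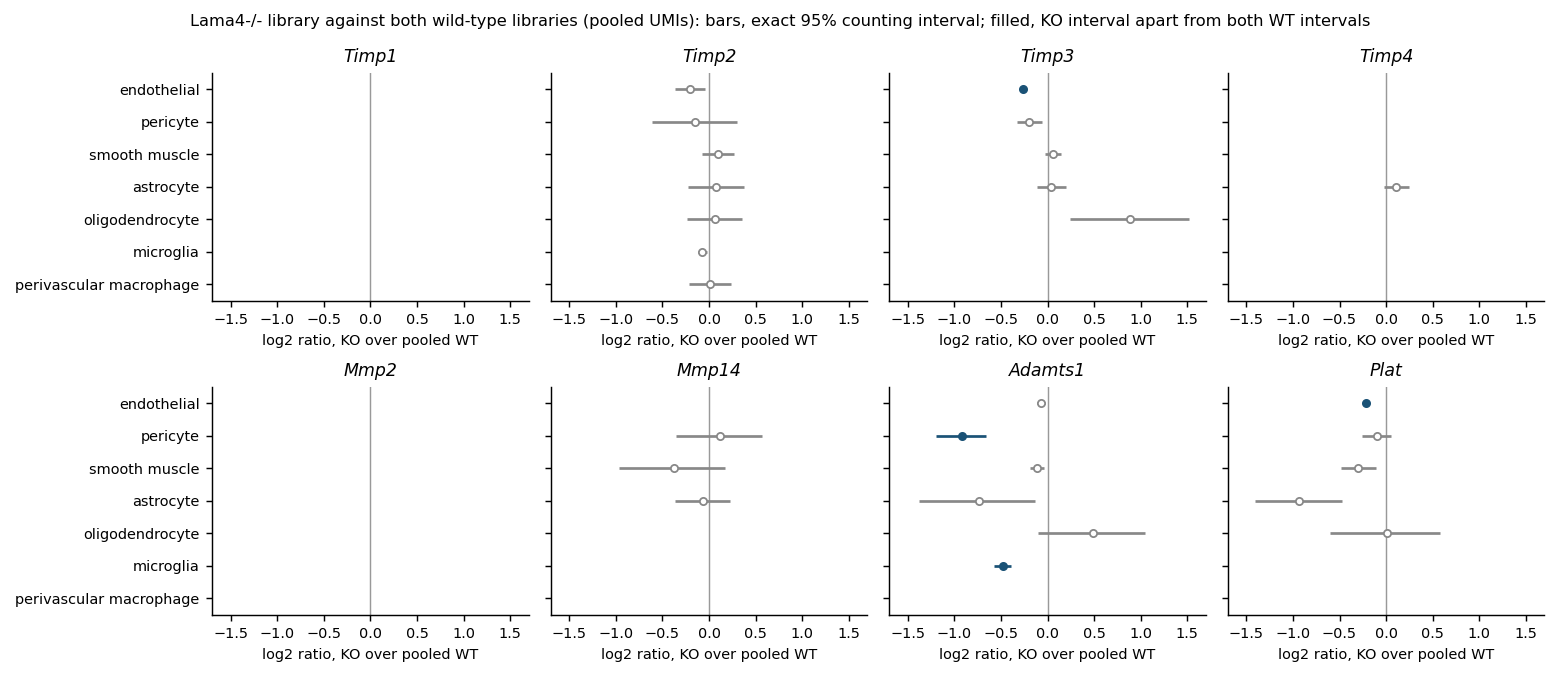
Log2 ratio of the Lama4-/- library (KO) over the pooled WT libraries (horizontal axis) for each gene and cell class (vertical axis), with exact 95% counting intervals; only genes at 20 CPM or more on average are drawn, and filled points are those whose KO interval meets neither WT interval. Timp3 and Plat in endothelial cells and Adamts1 in pericytes and microglia are filled, all to the left of 0.

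The list of dissociation and immediate early genes had 4 of 15 genes outside and higher and 9 lower in Lama4-/- endothelial-like cells. Among all genes there, 252 of 6406 were outside and higher and 701 lower. The list sums were 14477 and 14495 CPM in WT and 12688 CPM in Lama4-/-. In pericyte-like cells none of the list were higher and 6 lower (10781 and 12653 against 9509.7 CPM), beside 1.58% of all genes outside. Among the plasminogen system genes at 20 CPM or more in endothelial-like cells, 4 of 6 were outside and lower, Plat among them. Over all genes in these cells 701 of 6406 were outside and lower. The list median was -0.18 against -0.01 over all genes.

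In endothelial-like cells Adamts1, Timp3 and Timp1 differed between the WT groups of the experiments, and the sizes of these differences exceeded those between either knockout and its own WT. Adamts1 measured 320 and 363 CPM in the WT of the Lama4 experiment and 804 and 763 CPM in the WT of the Lama5 experiment, a difference of 1.20 (SE 0.043), or 2.30-fold, with an edgeR adjusted p of 2.49e-13. Timp3 measured 1116 and 1160 against 1493 and 1437 CPM (0.36, adjusted p = 1.01e-08). Timp1, at 1.98 and 1.91 against 0.95 and 0.84 CPM, was lower in the WT of the Lama5 experiment (-1.11, adjusted p = 0.00247), a call lost under DESeq2 (adjusted p = 0.0877). Plat measured 788 and 805 against 797 and 824 CPM, which overlapped (0.02, adjusted p = 0.467). Of 13242 genes tested, 55.8% were called in this comparison. The experiment, the pool of mice and the depth per cell cannot be told apart here, so levels were compared only with the own WT.

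Fibroblast-like cells were too few for a comparison, with 14 to 60 cells per library. Timp1 there measured 209.8 CPM (177 to 247) and 179 CPM (142 to 222) in the WT of the Lama4 experiment and 84.5 CPM (65.0 to 108) in Lama4-/-. The summed fibroblast markers in the same cells were 1968 and 2035 CPM in WT and 3820 CPM in Lama4-/-, and the endothelial markers 1827 and 1870 against 2712 CPM, and their part was not tested. In the Lama5 experiment it was 99.0 and 80.8 CPM in WT and 71.9 and 125.5 CPM in knockout libraries. Adamts1 in fibroblast-like cells measured 12.4 and 80.8 CPM in WT and 315 and 616 CPM in Tek-Cre:Lama5-/-. The summed endothelial markers there were 495 and 350 CPM in WT and 2841 and 3538 CPM in knockout libraries, and their part in this difference was not tested.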

How the data were processed

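The authors deposited tables of raw UMI counts for each gene in each barcode, made with Cell Ranger 3.1.0 per the file headers. Cell Ranger, Seurat 3.1 and the mm10 build are named in the submitters' processing notes. Annotation version and strand of counting are not given in the sources used here.

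Cells with at least 500 genes and under 15% mitochondrial UMIs were kept, and likely doublets were removed by score at 0.8% per 1000 cells. Cells were clustered (2000 variable genes without the 8 members, the listed protease genes and the targeted genes, 30 components, Leiden resolution 1) into 31 clusters and named by marker lists, and 4 clusters of 841 cells stayed unnamed. Counts were summed per class and library for classes with at least 50 cells in each library compared. Tek-Cre:Lama5-/- was tested with edgeR 4.0.16 (quasi-likelihood, TMM, filter by expression, Benjamini-Hochberg), with DESeq2 1.42.0 as an alternative, in R 4.3.3. The Lama4-/- library has no test, and log2 ratios used a pseudocount of 0.5 CPM. Alternatives were RLE size factors, a larger pseudocount, unscaled totals, no low-count filter, stricter cell filters, doublets kept, resolution 2, a replicate block and leaving out each library. Unscaled totals in edgeR, the class interaction and the pericyte-like class without its Col3a1-led cluster were chosen after seeing the data. The scripts were tested on simulated data.

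The text names all 8 members. From each listed gene group it names genes taken from up to 4 others called per class, by largest change at 20 CPM or more, and for likeness of pattern up to 3 genes per member. Members, lists and markers were chosen with earlier results of these data known. Intervals cover counting error only. Depth per library sets the precision, which is low in classes of few cells. One of the 8 samples, the second Lama4-/- table, was left out as identical to the first.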

Additional observations from a re-analysis of the deposited data

Results flagged for a closer look

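Effects of Tek-Cre:Lama5-/- differed between cell classes for 3 members in an edgeR interaction test chosen after the class values were seen. Against endothelial-like cells, this test called 7.39% of all genes in microglia-like and 9.99% in oligodendrocyte-like cells. The Adamts1 difference in microglia-like cells was lower than in endothelial-like cells by -0.40 on the log2 scale (adjusted p = 0.0448). The WT microglia libraries behind it measured 112 and 201 CPM, on either side of both knockout libraries. The Timp3 difference in oligodendrocyte-like cells exceeded that in endothelial-like cells by 0.34 (adjusted p = 0.0319). The oligodendrocyte-like Timp3 groups behind it overlapped, at 34.5 and 29.2 CPM in WT and 33.0 and 45.9 CPM in knockout libraries, and their difference was 0.04 without knockout library 2. The Plat difference in oligodendrocyte-like cells was greater by 0.23 (adjusted p = 0.0467). The oligodendrocyte-like Plat call behind it was lost under DESeq2 (adjusted p = 0.681) and at clustering resolution 2 in edgeR (adjusted p = 0.0548).

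Among members that passed the count filter in the Lama5 experiment and reached 20 CPM in the Lama4 experiment, for 4 of 27 pairs of gene and class (14.8%) every knockout library lay on one side of its own WT libraries in the Lama5 experiment and on the other side in the Lama4 experiment. Over all genes under the same limits the share was 21.9%, so the members' share was not above that of other genes. The difference between the experiments was not tested in any of them, and Lama4-/- has 1 library. Adamts1 in smooth muscle-like cells was at 0.53 in Tek-Cre:Lama5-/- and -0.11 in Lama4-/-. Mmp14 in pericyte-like cells was at -0.52 and 0.11. Timp2 was at -0.292 and 0.0742 in astrocyte-like cells, and at 0.0659 and -0.0711 in microglia-like cells. Of these 8 values only the first passed a test. No group has enough libraries for a check of single outlying libraries.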

How the results depend on the processing

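Adamts1 in endothelial-like cells stayed called in every alternative run, and Adamts1 in smooth muscle-like cells in all but the fit without a low-count filter. Of 456 alternative values of members in Tek-Cre:Lama5-/-, 388 kept their direction and side of the threshold, 34 that were not called changed sign, 16 became called, 17 lost the call and 1 reversed. That one was Adamts1 in microglia-like cells, at 0.38 without WT library 2 and -0.47 without WT library 1. In Lama4-/-, 167 of 186 alternative values moved by less than the spread and 19 moved by more.

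Counts of called genes depended more on the method. DESeq2 called 862 genes in endothelial-like, 9 in pericyte-like, 167 in smooth muscle-like, 87 in astrocyte-like, 488 in oligodendrocyte-like, 407 in microglia-like, 15 in perivascular macrophage-like and 3 in neuroblast-like cells, against 2429, 24, 584, 158, 1759, 1412, 49 and 27 in edgeR, and 4406 against 7395 between the WT groups. Without a low-count filter edgeR called 59 genes in pericyte-like, 28 in smooth muscle-like and 97 in neuroblast-like cells. With doublets kept it called 901 in pericyte-like, 22 in perivascular macrophage-like and 3 in neuroblast-like cells. Timp3 (0.39), Adamts1 (0.88) and Mmp14 (-0.77) then became called in pericyte-like cells. That class then held a cluster of 396 cells that met 9 of 9 pericyte markers and also 8 endothelial markers. The cluster held 50 and 56 WT and 118 and 102 knockout cells of the Lama5 experiment, and its part was not tested. Stricter cell filters gave 1444 genes in astrocyte-like cells, and clustering at resolution 2 gave 13 in neuroblast-like cells. Leaving out 1 library at a time gave 1937 to 1983 genes in endothelial-like, 25 to 38 in pericyte-like, 355 to 489 in smooth muscle-like, 16 to 169 in astrocyte-like, 1159 to 1477 in oligodendrocyte-like, 844 to 1056 in microglia-like, 23 to 43 in perivascular macrophage-like and 44 to 80 in neuroblast-like cells. In Lama4-/-, genes past a log2 ratio of 0.5 numbered 93 in endothelial-like cells (59 to 111 without 1 WT library) and 395 in astrocyte-like cells (527 to 713, and 676 with stricter cell filters). The cause of these differences was not tested.

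The labels do not say that replicate numbers mark shared animals. A fit with the replicate block called 71 genes in pericyte-like cells against 24 without it and 2399 in endothelial-like cells, and Plat in oligodendrocyte-like cells lost its call (adjusted p = 0.0527). Members under 20 CPM, Mmp2 and Timp1 above all, rest on few UMIs, and their values are imprecise at this depth.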
